A study of Caenorhabditis elegans with 4 samples.

Results

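Chromosome II of Caenorhabditis elegans carried 83 of the 474 regions that the authors' combined list gives for the transcription factor AHA-1, 3555 of the 23943 peaks of ChIP replicate 1 and 3275 of the 20827 peaks of ChIP replicate 2. These were taken as every row of the 3 deposited lists that names chromosome II, with no filter on strength. A replicate 1 peak was counted as reproduced when it shared at least 1 bp with a replicate 2 peak, which held for 891 of the 3555. Chromosomes III, IV, V and X served as background.

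AHA-1 was mapped by chromatin immunoprecipitation and sequencing (ChIP-seq), in which DNA bound by a tagged protein is recovered with an antibody and sequenced. The series held 2 anti-GFP ChIP libraries and 2 input libraries (chromatin before precipitation) from hermaphrodite larvae of the first stage (fed L1) grown at 20 °C. All came from the single strain OP124, which carries the mutation unc-119(ed3) and the integrated transgene wgIs124, an aha-1 fusion to TY1, EGFP and FLAG with an unc-119 rescue, and was outcrossed 3 times. There was no second stage, strain or treatment, and whether the replicates came from separate cultures is not given in the sources used here, so the spread between them may be technical. Whole larvae were used, so a peak cannot be assigned to a tissue.

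AHA-1 is the worm counterpart of mammalian ARNT. It belongs to the basic helix-loop-helix PAS family, whose members bind DNA as dimers, and ARNT-type proteins are the shared partner in such dimers. In worms AHA-1 pairs with HIF-1, the factor of the response to low oxygen, and with AHR-1, the counterpart of the aryl hydrocarbon receptor, which acts in the development of certain neurons. Autosomes of this species have a gene-dense centre with little recombination and outer arms that hold more repeats and recombine more. Here the chromosome was divided simply into 3 parts of equal length, so the borders are not those of the recombination domains.

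The 2 kinds of list differ. The replicate lists give each peak a score of unstated scale, and the combined list, made with another caller, gives each region a q-value, the authors' own estimate of the false discovery rate. On chromosome II, 3554 of the 3555 replicate 1 peaks were 410 bp wide and all 3275 replicate 2 peaks were 484 bp wide. Replicate scores ran from 0.151 to 3.39 in replicate 1 (median 0.601) and from 0.208 to 3.01 in replicate 2 (median 0.658). The highest value was shared by 192 peaks of chromosome II in replicate 1 and by 78 in replicate 2, and ranks within these ties follow the authors' peak numbers alone. What the peak numbers stand for is not given in the sources used here, so a rank of at most 1238 in replicate 1 or 512 in replicate 2 names a peak and is no order of strength. Read depth was not given in the sources used here. All positions are 1-based and in WormBase WS220, and the chromosome length was taken as the last peak end, 15274203 bp. Each interval is a 95% Clopper-Pearson (exact binomial) interval for a share, or the exact interval of an odds ratio. Intervals and p-values reflect how many peaks were counted, not reads, and take neighbouring peaks as independent, which they may not be.

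In number, chromosome II was close to its size. It held 5.43 combined regions per Mb, against 5.25 per Mb over III, IV, V and X, where the values ran from 4.02 on V to 6.97 on III. Of the 450 combined regions on these 5 chromosomes, 18.4% lay on II (interval 14.97 to 22.3), which makes up 17.9% of their length, and the difference did not pass the test (two-sided exact binomial p = 0.759, adjusted over 7 binomial tests 0.759). The direction turned among the strongest regions, those with a q-value of at most 1e-05, of which 13.9% (17 of 122) lay on II. Chromosome I was left out of these shares. Over all 6 nuclear chromosomes, II held 17.5% of the 474 regions and 15.2% of the length. This wider gap did not pass either (two-sided exact binomial p = 0.179, adjusted 0.209). Replicate 1 peaks had a density of 233 per Mb on II and 239 per Mb on the background chromosomes. In replicate 2 the values were 214 and 207 per Mb.

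No difference in reproduction between II and the other chromosomes was detectable. Of the replicate 1 peaks on II, 25.1% were reproduced (interval 23.6 to 26.5), against 24.4% of the 16679 peaks of the background chromosomes (two-sided Fisher's exact p = 0.440, adjusted over 11 Fisher tests 0.584, odds ratio 1.03 with interval 0.950 to 1.12). Counted from the other list, 27.4% of the replicate 2 peaks on II overlapped a replicate 1 peak, against a background of 28.5%, so the sign of the difference turned (exact p = 0.190, adjusted 0.278). Peak density alone gives some overlap. Replicate 2 peaks covered 9.73% of chromosome II, and a peak of 410 bp would touch one of them from 17.2% of its possible positions. This share counts every position alike, although the peaks of both replicates were unevenly placed, so it is no full measure of overlap by chance.

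The peaks with the highest scores were found again most often. Of the 192 replicate 1 peaks on II with the highest score, 135 (70.3%, interval 63.3 to 76.7) were reproduced, against a background of 67.7%. The share was 33.1% at ranks 1239 to 2500, 25.3% at ranks 2501 to 5000 and 19.2% (17.1 to 21.5) beyond rank 15000. In replicate 2, 69 of the 78 highest-scoring peaks (88.5%, 79.2 to 94.6) overlapped a replicate 1 peak, against a background of 84.8%, and 22.3% (19.6 to 25.2) did so beyond rank 15000. In each of the 12 rank bands the interval of II overlapped that of the background. The interval of the lowest replicate 1 band on II only just included the 17.2% that peak density gives. On III, IV, V and X this band stood at 20.2% (19.3 to 21.3), above the 16.6% that peak density gives there with every position counted alike. Whether it exceeds the overlap of unevenly placed peaks was not tested. For replicate 2 peaks no such share was computed.

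**Figure D1:**
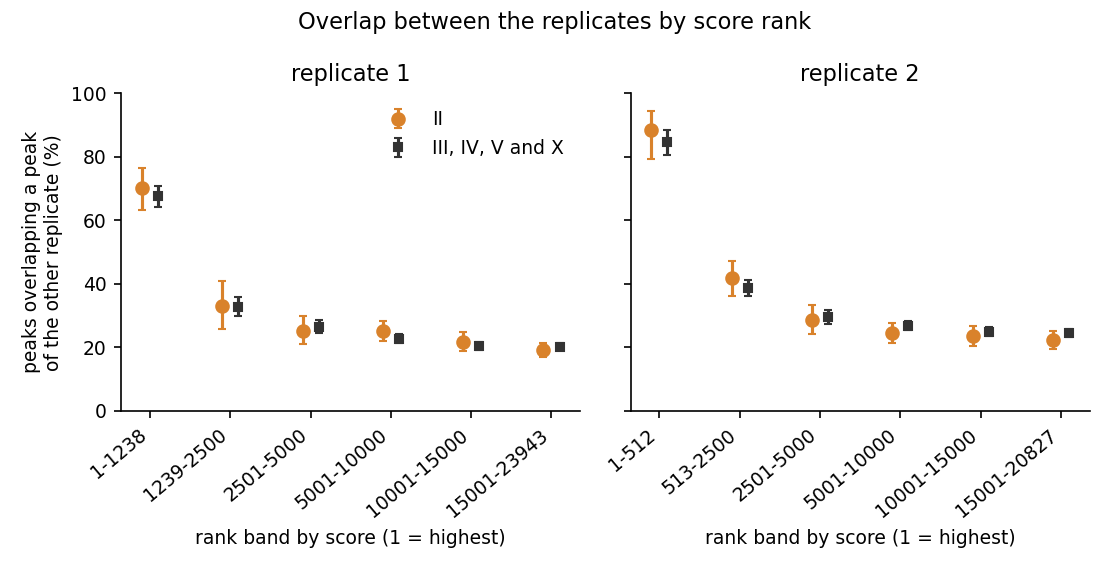
Share of peaks (%, y axis) that overlapped a peak of the other replicate, by rank band of the score (x axis), for replicate 1 (left) and replicate 2 (right). Circles are chromosome II, squares III, IV, V and X together, and bars exact 95% binomial intervals; on II the share fell from 70.3% to 19.2% in replicate 1 and from 88.5% to 22.3% in replicate 2.

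Position followed the same order. On II, 55 replicate 1 peaks with the highest score overlapped 53 replicate 2 peaks with the highest score, in 58 pairs. The median distance between the midpoints of these pairs was 35.5 bp (interquartile range 19 to 80.5), and 79.3% were within 100 bp. In the other 951 overlapping pairs the median was 189 bp (85 to 312), and 29.4% were within 100 bp. Of all 1009 pairs, 16 shared 10 bp or less, and 13 replicate 1 peaks that were not reproduced lay less than 10 bp from a replicate 2 peak. The reproduced count did depend on the overlap asked for: it fell from 891 to 535 (15%, against 14.6% on the background chromosomes) when each peak had to share at least 50% of its length, and to 529 (14.9%, against 14.4%) when midpoints had to lie within 200 bp.

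**Figure D2:**
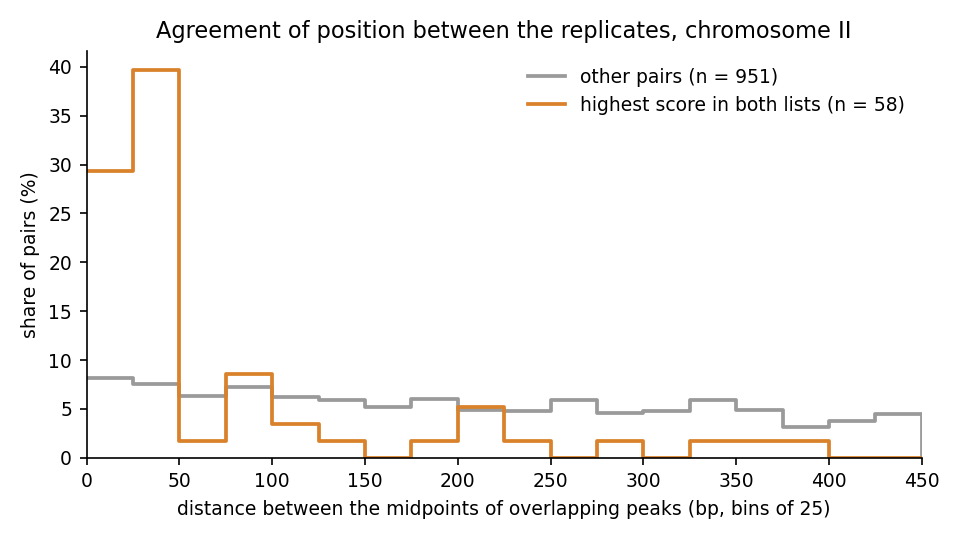
Distance between the midpoints of overlapping replicate 1 and replicate 2 peaks on chromosome II (x axis, bp, bins of 25) as a share of pairs (y axis, %). The 58 pairs with the highest score in both lists peak below 50 bp (median 35.5 bp), and the other 951 pairs spread over the whole range (median 189 bp).

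All 58 pairs share the same scores, so those named here are simply the ones with the lowest sums of the authors' peak numbers. The first had replicate 1 rank 35 (10563313 to 10563722) and replicate 2 rank 19 (10563280 to 10563763), with midpoints 4 bp apart. Next came a site with ranks 17 and 68 at 8561285 to 8561448 in replicate 1 and 8561133 to 8561616 in replicate 2. Its replicate 1 peak was 164 bp wide, the single narrower peak on the chromosome, and lay wholly inside the replicate 2 peak. Ranks 61 and 92 belonged to a pair in the left part, at 4851607 to 4852016 and 4851589 to 4852072. All 3 pairs lay in a combined region, with q-values of 1.64e-08, 4.17e-11 and 1.24e-07.

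Along the chromosome the combined regions were uneven, and most lay toward the right end. The right part held 44 of the 83 (53.0%, interval 41.7 to 64.1), the central part 23 (27.7%, 18.4 to 38.6) and the left part 16 (19.3%, 11.4 to 29.4). On III, IV, V and X together the right part held 28.3% of 367 regions, and the difference from II passed the test (two-sided Fisher's exact p = 2.88e-05, adjusted 3.17e-04, odds ratio 2.85 with interval 1.70 to 4.78). The left part held 35.4% on the background chromosomes, and II was lower (Fisher's exact p = 0.00423, adjusted 0.0155, odds ratio 0.436 with interval 0.226 to 0.799). By chromosome the left share was 30.2% on III, 45.8% on IV, 28.6% on V and 35% on X. The intervals of III (21.3 to 40.4), V (19.2 to 39.5) and X (24.7 to 46.5) overlapped that of II, so only IV stood clearly apart. Against an even spread of 33.3% per part, the right part of II was above (exact binomial p = 2.57e-04, adjusted 0.00180) and the left part below (p = 0.00699, adjusted 0.0163). The tests of the right and left parts were added after their counts were seen.

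The right share still passed when each group of neighbouring regions was counted once, at 38 of 76 (50.0%, Fisher's exact adjusted p = 0.0063). The lower left share then no longer passed the test, at 21.1% against 35.1% (Fisher's exact adjusted p = 0.0729). The combined list was also replaced by all peaks with the highest score in 1 replicate, a further alternative chosen after seeing the data. The right part then held 44.3% of those on II in replicate 1, against 33.1% on the background chromosomes (Fisher's exact adjusted p = 0.0155). By chromosome the share was 38.6% on III, 26.6% on IV, 23.8% on V and 41.6% on X. The intervals of III (32.0 to 45.6) and X (35.0 to 48.4) overlapped that of II (37.1 to 51.6). In replicate 2 the right part held 43.6% against 30.1% and did not pass (Fisher's exact adjusted p = 0.0865). With 474 of these tied peaks, taken by peak number to match the length of the combined list, the right share was 42.9% in replicate 1 and 44.0% in replicate 2 and passed in neither (Fisher's exact adjusted p = 0.194 and 0.0779). It did not pass among the 17 regions on II with a q-value of at most 1e-05, of which 8 (47.1%) lay in the right and 2 (11.8%) in the left part (Fisher's exact adjusted p = 0.309 and 0.0844).

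No difference was detectable for the central part. Its 27.7% of the combined regions stood against 36.2% on the background chromosomes (Fisher's exact p = 0.161, adjusted 0.294, odds ratio 0.675 with interval 0.380 to 1.17) and against an even 33.3% (exact binomial p = 0.297, adjusted 0.346). Among the 17 strongest regions it held 7 (41.2%), so the sign turned. The 4 background chromosomes were uneven in ways of their own. The right part held 36.5% of the regions on III, 23.4% on IV, 25% on V and 28.8% on X. Of their intervals only that of III (26.9 to 46.9) overlapped that of II (41.7 to 64.1). The left part of IV held 45.8% and the central part of V 46.4%.

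**Figure D3:**
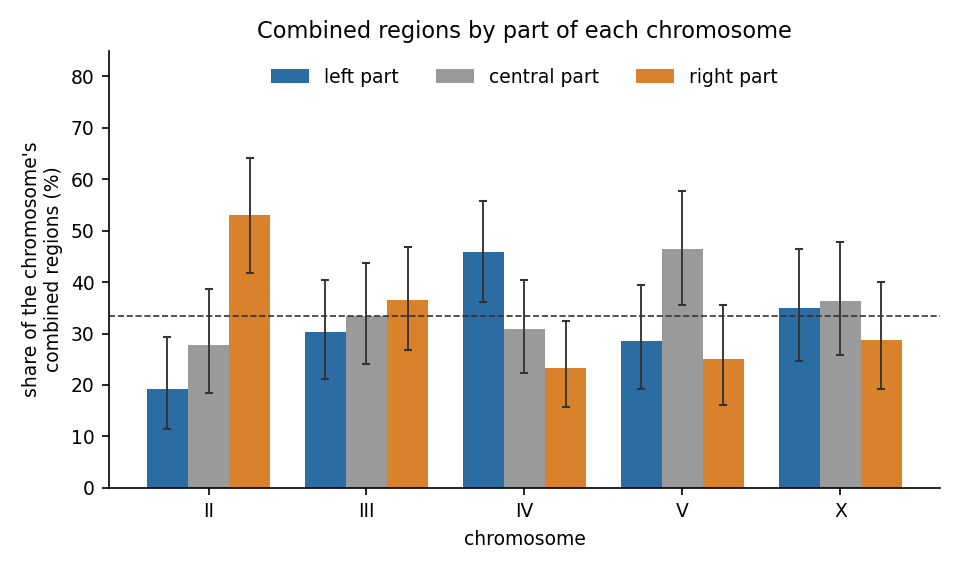
Share of each chromosome's combined regions (%, y axis) in its left, central and right part of equal length, for II, III, IV, V and X (x axis). Bars are shares, error bars exact 95% binomial intervals, and the dashed line an even 33.3%; on II the right part stands at 53.0% and the left at 19.3%.

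The replicate peaks were spread more evenly. Of all replicate 1 peaks on II, 28.7% lay in the left, 36.1% in the central and 35.2% in the right part, and in replicate 2 the shares were 29.6%, 36.6% and 33.8%. Reproduced peaks were shifted to the right: 230 (25.8%) lay in the left, 320 (35.9%) in the central and 341 (38.3%, interval 35.1 to 41.6) in the right part. The right share was above the 32.5% of the background chromosomes (Fisher's exact p = 0.00115, adjusted 0.0063, odds ratio 1.29 with interval 1.10 to 1.50), a test also added after seeing the data. Among reproduced peaks it was 35.3% on III, 31.1% on IV, 28.8% on V and 35.2% on X. The intervals of III (32.2 to 38.5) and X (32.3 to 38.1) overlapped that of II. Over all peaks of a replicate, reproduced or not, the right share was 35.2% against 32.9% in replicate 1 and passed (Fisher's exact adjusted p = 0.0316). By chromosome this share was 35.3% on III, 32.8% on IV, 29.1% on V and 35.0% on X, so it was not particular to II. In replicate 2 the right share was 33.8% against 33.1% and did not pass (Fisher's exact adjusted p = 0.584). The central share of reproduced peaks stood at 35.9% on II and 36.1% on the background chromosomes (Fisher's exact p = 0.969, adjusted 1). Over all peaks of a single replicate the sign turned, with 36.1% against 33.9% in replicate 1 (Fisher's exact adjusted p = 0.0315) and 36.6% against 34.6% in replicate 2 (adjusted p = 0.0692). By chromosome the replicate 1 central share was 32.9% on III, 33.9% on IV, 36.6% on V and 32.0% on X, so V stood above II.

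Among highest-scoring peaks the left part was sparse in both replicates. It held 28 of 192 in replicate 1 (14.6%, interval 9.91 to 20.4) and 14 of 78 in replicate 2 (17.9%, 10.2 to 28.3), against 31.6% and 33.7% on III, IV, V and X. In replicate 1 the left share ran from 25.6% on III to 37.9% on IV, and the interval of III (19.8 to 32.1) overlapped that of II. In replicate 2 it ran from 30.0% on III to 39.7% on IV. There the intervals of III (20.8 to 40.6), V (20.6 to 43.8) and X (25.3 to 44.2) overlapped that of II. These left shares were not tested. The right part of II held 85 (44.3%) and 34 (43.6%). Of the 55 reproduced peaks with the highest score in both lists, 26 (47.3%, 33.7 to 61.2) lay in the right part, against 31.0% of 213 elsewhere, which did not pass after adjustment (Fisher's exact p = 0.0265, adjusted 0.0729). The share of replicate 1 peaks that were reproduced was 22.6% in the left, 24.9% in the central and 27.3% in the right part. On III, IV, V and X together these shares were 23.1%, 26.0% and 24.2%, so II was above them in the right part only. By chromosome the right part stood at 25.5% on III, 23.4% on IV, 22.8% on V and 24.9% on X. Counted from replicate 2, the right part stood at 31.4% on II. It was 32.8% on III, 28.0% on IV, 23.4% on V and 30.4% on X, so III stood above II. These shares were not tested.

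In 10 segments of equal length, numbered from the left end, the combined regions ranged from 2 in segment 2 to 17 in segment 8. Segments 1 to 5 held 8, 2, 5, 4 and 6 regions, and segments 6 to 10 held 10, 11, 17, 7 and 13. Segment 8, from 10691943 to 12219362, also had the most reproduced peaks (123) and the largest reproduced share, 31.7% of its 388 replicate 1 peaks. Segment 2, from 1527421 to 3054840, had the fewest, 53 of 250 (21.2%). The number of replicate 1 peaks varied less, from 250 to 411 per segment, and that of replicate 2 from 266 to 381.

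**Figure D4:**
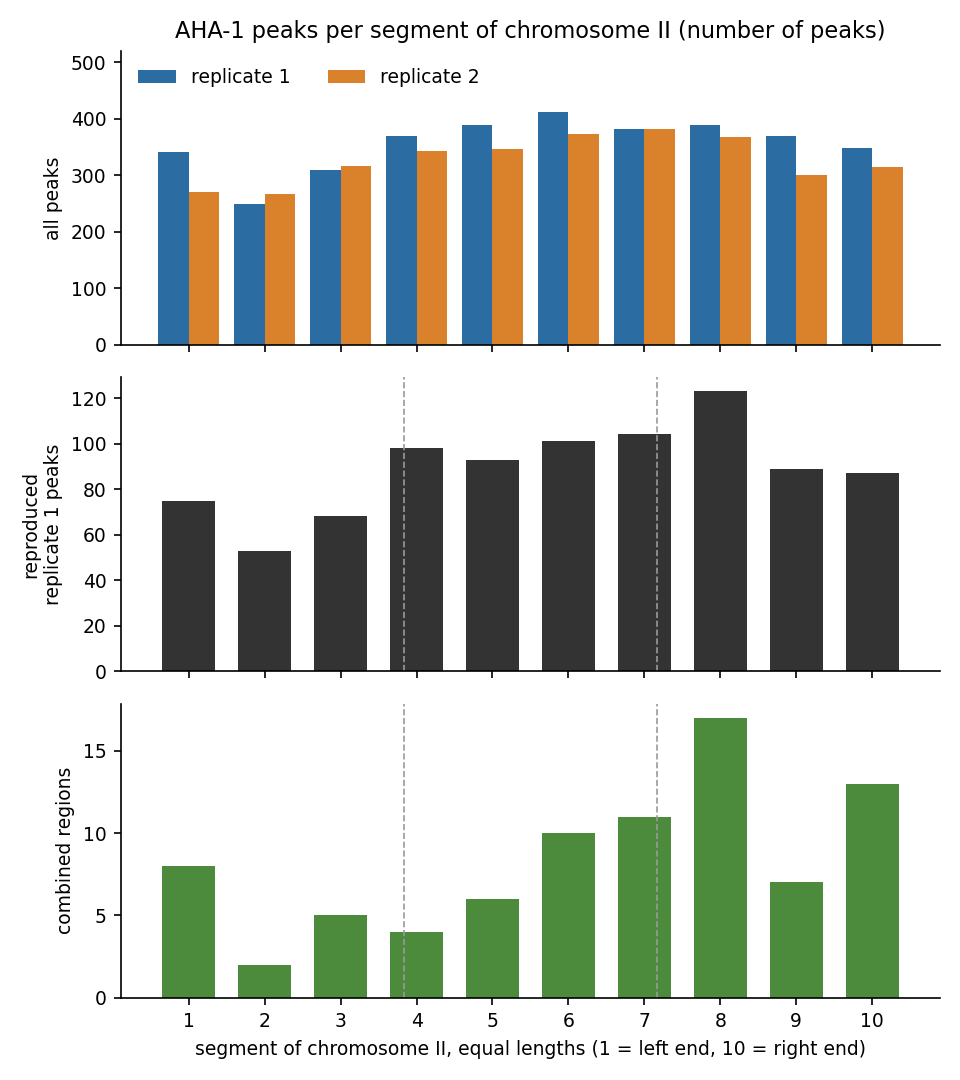
Number of peaks (y axes) in each of 10 equal segments of chromosome II, from the left end (1) to the right end (10): all peaks of replicate 1 and replicate 2 (top), reproduced replicate 1 peaks (middle) and combined regions (bottom). Dashed lines in the lower panels mark the borders of the 3 equal parts. Combined regions reach 17 in segment 8 and fall to 2 in segment 2.

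The first combined region began 24.5 kb from the left end, at 24515, and the last ended at 15026043, 248 kb before the last peak end on the right. Neighbouring regions lay a median of 99.0 kb apart, midpoint to midpoint. The longest stretch with none was from 1402548 to 2564976, with midpoints 1163 kb apart, and 3 of the 4 longest lay in the left part. That stretch still held 169 replicate 1 peaks, 38 of them reproduced, but no pair with the highest score in both lists. The stretch from 7152281 to 8131295 in the central part held 237 replicate 1 peaks, 49 reproduced, and 1 such pair.

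The strongest region of chromosome II was its one broad region, from 9169864 to 9172591 (2728 bp), with a q-value of 1.73e-103, at place 3 of the 474 in the list. It was the only region of 1000 bp or more on II, against 12 of 367 on the background chromosomes (Fisher's exact p = 0.478, adjusted 0.584). Replicate 1 placed 4 peaks in it, with ranks 339, 507, 1299 and 4593. Replicate 2 placed 3 peaks, with ranks 18, 113 and 245. Both lists put 1 peak at its left edge, starting at 9169802 in replicate 1 and 9169870 in replicate 2, and the others between 9170942 and 9171905. In replicate 1 the peaks of rank 339 and 507 shared the highest score, and in replicate 2 all 3 did. Such peaks overlapped between the replicates both at the left edge (ranks 339 and 245, midpoints 105 bp apart) and further right (ranks 507 and 18, 284 bp apart). This region lay in the central part, so leaving it out could only raise the right share, which was then 44 of 82 (53.7%).

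Next in strength were neighbours in the right part. The regions from 11759178 to 11759632 (q = 5.91e-15) and from 11761630 to 11762134 (q = 1.25e-14) stood beside another from 11756570 to 11757140 (q = 3.57e-07). Their midpoints were 2.48 to 2.55 kb apart, and each held exactly 1 peak of each replicate, all with the highest score. At the one starting at 11759178 the replicate midpoints were 48 bp apart, and at 11761630 they were 20 bp apart. At the one starting at 11756570 the peaks did not touch: the replicate 1 peak (11756728 to 11757137, rank 270) and the replicate 2 peak (11756091 to 11756574, rank 484) were separated by 153 bp. Both therefore counted as not reproduced although they met the same combined region.

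The largest group on the chromosome lay in 15 kb from 10548662 to 10563673, with 5 regions spaced 3.00 to 4.53 kb apart. From left to right their q-values were 5.07e-05, 2.00e-04, 0.00128, 9.07e-06 and 1.64e-08. Their best replicate 1 ranks were 496, 68, 183, 131 and 35, all within the highest score, and their best replicate 2 ranks 549, 249, 2923, 40 and 19. In 3 of the 5 both replicates had the highest score. In all, 13 replicate 1 peaks and 10 replicate 2 peaks fell in the span. A further region from 10541957 to 10542738 (q = 0.00246), beyond the 5 kb limit on the left, had best ranks of 5837 and 1966. Whether one enriched stretch was split by the caller was not tested.

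The other group was a pair in the central part, from 9156317 to 9156567 (q = 9.08e-05) and from 9160150 to 9160532 (q = 4.37e-10), to the left of the broad region. In total 10 of the 83 regions (12%, interval 5.93 to 21.0) had another within 5 kb, in 3 groups, against a background of 20.4% on III, IV, V and X (Fisher's exact p = 0.0880, adjusted 0.194, odds ratio 0.534 with interval 0.234 to 1.10). On III the share was 27.1% in 11 groups, and on X 10.0% in 3. No region on II had another within 2 kb, against 10.1% of regions elsewhere, and this difference passed the test (Fisher's exact adjusted p = 0.00328). Regions with a neighbour are counted together with that neighbour, so they are not independent and these p-values may be too small. The adjustment does not count the other spacings tried. Within 10 kb the shares were 20.5% and 24.8% and did not pass (Fisher's exact adjusted p = 0.584). Among regions with a q-value of at most 1e-05 the sign at 5 kb turned, with 29.4% on II and 13.3% elsewhere. Of the 10 grouped regions on II, 8 lay in the right part.

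The other sites among the 15 lowest q-values were 265 to 960 bp wide. In the central part these were 8561217 to 8561562 (q = 4.17e-11), 5543377 to 5544336 (q = 1.79e-09), 5844608 to 5845151 (q = 5.65e-09) and 6588873 to 6589308 (q = 3.07e-07). In the right part they were 14561652 to 14561916 (q = 1.07e-08), 10248355 to 10248667 (q = 7.72e-07) and 14794874 to 14795263 (q = 1.58e-06). The left part had 4851652 to 4851975 (q = 1.24e-07) and 1320461 to 1320812 (q = 1.60e-06). Of the 15, 7 lay in the right, 6 in the central and 2 in the left part. In 13 of the 15 both replicates had a peak with the highest score. The exceptions were the sites at 14561652, where the replicate 2 score was 2.63 (rank 771), and at 10248355, where it was 1.68 (rank 2943).

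Most combined regions were as wide as a single replicate peak or narrower. The median width on II was 320 bp (interquartile range 296 to 425), against 351 bp (303 to 476) on the background chromosomes. The median was 390 bp among the 15 lowest q-values and 315 bp among the other 68. Exactly 1 peak of each replicate lay under 57 of the 83 regions (68.7%), and 22 held more than 1 peak of at least one replicate. The share of 500 bp or more was 18.1% on II and 22.6% elsewhere.

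**Figure D5:**
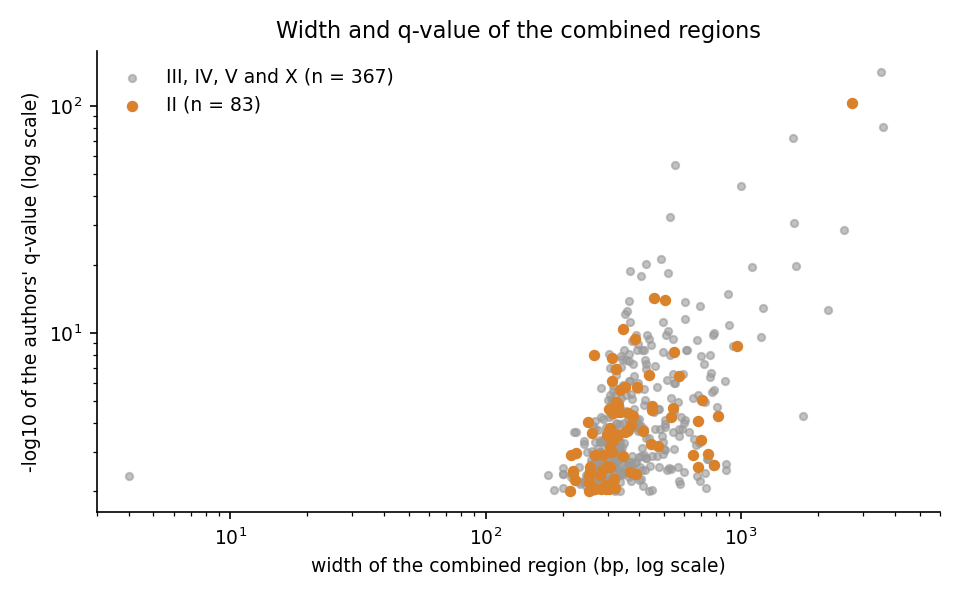
Width of each combined region (x axis, bp, log scale) against minus log10 of the authors' q-value (y axis, log scale). Orange points are the 83 regions of chromosome II and grey points the 367 of III, IV, V and X; the broad region of 2728 bp stands alone on II at the top right, and a 4 bp entry at the far left is on III.

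At an overlap of 1 bp, nearly every combined region on II had support in both replicates: 79 of 83 (95.2%, interval 88.1 to 98.7) overlapped a peak of each, against a background of 89.9% (Fisher's exact p = 0.202, adjusted 0.318, odds ratio 2.21 with interval 0.761 to 8.79). When at least 50% of each length had to be shared, it was 65 of 83 (78.3%), against 76.0%. In 75 of the 79 the best-ranked peaks of the 2 replicates also overlapped each other. The combined list and the replicate lists come from the same ChIP libraries, so this overlap is no independent support. In 44 regions (53.0%) both replicates had the highest score, in 29 only replicate 1 and in 2 only replicate 2. In the 57 regions with 1 peak of each replicate, the median distance between the midpoints was 30 bp (11 to 49), and in 5 it was over 200 bp.

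The 4 exceptions had q-values from 0.00111 to 0.00889. The region from 4047974 to 4048198 (225 bp, q = 0.00111) overlapped no replicate peak. Those from 14349464 to 14349732 (q = 0.00126) and from 5373276 to 5373558 (q = 0.00889) had a replicate 1 peak with the highest score (ranks 495 and 218) and no replicate 2 peak. The region from 10033514 to 10033736 (q = 0.00561) had a replicate 2 peak of rank 4992 and none in replicate 1. A region with a low q-value and weak replicate peaks was 3994536 to 3994983 (q = 2.78e-05), chosen after its values were seen, whose best peaks ranked 19121 and 3727.

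Conversely, of the 55 replicate 1 peaks with the highest score in both lists, 48 (87.3%, interval 75.5 to 94.7) lay in a combined region, against a background of 86.9% (Fisher's exact p = 1, adjusted 1, odds ratio 1.04 with interval 0.410 to 2.99). Among the first 500 peaks of each list, by peak number within the ties, the shares were 97.5% and 98.0%. The 7 without one, with replicate 1 and replicate 2 ranks, were 4999144 to 4999553 (484 and 278), 12050471 to 12050880 (519 and 372), 8128619 to 8129028 (564 and 350), 6348369 to 6348778 (774 and 172), 11452951 to 11453360 (1022 and 218), 10300874 to 10301283 (1006 and 417) and 6061487 to 6061896 (1112 and 453). In 6 of the 7 the replicate midpoints were 4 to 105 bp apart. At 10300874 they shared only 50 bp.

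Some strong peaks belonged to 1 replicate. Of the highest-scoring peaks on II, 70.3% in replicate 1 and 88.5% in replicate 2 were found in the other list. On III, IV, V and X the shares were 67.7% and 84.8%, so II stood near the background. On II, 57 of 192 in replicate 1 and 9 of 78 in replicate 2 were not found in the other list. The lowest peak numbers among these in replicate 1 belonged to 14496711 to 14497120 (rank 132), 5660946 to 5661355 (rank 152) and 9061675 to 9062084 (rank 169), and replicate 2 peaks lay 396, 189 and 235 bp away. In replicate 2 the lowest belonged to 5293425 to 5293908 (rank 248), 5042 bp from the nearest replicate 1 peak. Over the 57 the nearest replicate 2 peak was a median of 787 bp away, and 21 had one within 500 bp. By part, 33 of the 57 lay in the central part, 19 in the right and 5 in the left. Of all 192 highest-scoring peaks, these parts held 79, 85 and 28. A peak missing from 1 list cannot be told apart from one missed for want of reads, since depth is unknown.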

How the data were processed

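The deposited files used were 3 peak lists of WormBase WS220, per the file headers: 1 for each of 2 ChIP replicates, and 1 combined list. The replicate lists name SPP through IDR, and the authors deposited a score per peak. The combined list names PeakSeq, and the authors deposited a q-value per region. The sources used here do not give aligner, caller versions, pooling or depth, so no read-level error can be stated, and input libraries were not analysed here.

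Rows naming chromosome II were compared with III, IV, V and X by overlap of at least 1 bp. Shares were tested with two-sided Fisher's exact tests (11) and two-sided exact binomial tests (7), each family with Benjamini-Hochberg adjustment, threshold 0.05. Python 3.11.15, scipy 1.17.1 and pandas 2.3.3 were used; overlap counts were checked with bedtools 2.31.1 and on simulated data with known answers. Regions named are the 15 lowest q-values, those of at least 1000 bp, groups within 5 kb, those lacking a replicate peak, and highest-scoring pairs outside the combined list. Outside this rule, the regions starting at 3994536 and 10541957, the pairs with the lowest peak numbers and the unreproduced peaks were chosen after their values were seen. Members, lists and tests were chosen with earlier results of these data known. Genes and sequences of WS220 were not used here, so sites are named by position only. Alternatives were stricter overlap and q-values, other widths, spacings and parts, and single replicates.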

Additional observations from a re-analysis of the deposited data

How the results depend on the processing

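Of 71 alternatives, 45 kept direction and side of the threshold; the cause of the other changes was not tested. With a q-value of at most 1e-05, the chromosome II share of combined regions turned below its length share (13.9%), the central share rose above both the background and an even spread (41.2%), the share with a neighbour within 5 kb turned above the background (29.4%) and the right share (47.1%) no longer passed, with 17 regions left on II. Within 2 kb, 0% had a neighbour and the difference passed, in a test that took neighbours as independent. Within 10 kb it did not pass. From replicate 2 peaks the reproduced share turned below the background (27.4%). Among the first 500 peaks of each list, recovery in the combined list turned below it (97.5% against 98.0%). With 474 highest-scoring peaks of a single replicate, taken inside a tie by peak number, the right share was 42.9% to 44.0% and did not pass. With all tied peaks it was 43.6% (replicate 2, not passing) to 44.3% (replicate 1, passing). In replicate 1 the single background chromosomes then ran from 23.8% on V to 41.6% on X. With all peaks of a single replicate, the central share was 36.1% to 36.6%, passed against an even spread and turned above the background (passing for replicate 1 peaks only). In replicate 1 the single background chromosomes ran from 32.0% on X to 36.6% on V. In the higher-scoring 50% the central share of II also lay above the background (38.2%). The right share of all peaks was 35.2% in replicate 1 and passed, and 33.8% in replicate 2 and did not. In replicate 1 the single background chromosomes ran from 29.1% on V to 35.3% on III. No paired analysis was possible because only the ChIP libraries had peak lists, with no values of the input libraries to pair with them.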
